A study of Homo sapiens with 2 samples.

Results

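Interferon-induced genes and sensors of double-stranded RNA were examined in K562 cells, an established human line from chronic myeloid leukaemia with the BCR-ABL fusion gene. The set held 35 genes, listed by name from the known pathway with earlier results of these data in view, and 34 of them had a probe set among the 18417 genes of the array. STAT2 was not analysed here. A hairpin RNA directed at BMI1, which encodes a Polycomb repressive complex 1 protein, could be switched on in these cells. The doxycycline culture received the drug for 96 h, and the culture without doxycycline carried the same hairpin construct and received none, for a time the labels do not give. Each group held 1 sample hybridised to 1 array, with 0.3 µg of RNA at an integrity number of 10. No sample received doxycycline without the hairpin, so the drug, the hairpin RNA and the loss of BMI1 cannot be told apart. The labels do not say how the hairpin was delivered or whether the cells were a clone or a pool.

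Interferons are secreted proteins that signal through the kinases JAK1 and TYK2 to a complex that contains STAT2 and IRF9. This complex binds a short promoter sequence, the interferon-stimulated response element (ISRE), and turns on genes whose products block viral replication. Double-stranded RNA in the cytoplasm is sensed by RIGI and IFIH1, which signal through MAVS to the factors IRF3 and IRF7. A hairpin RNA is itself double-stranded, and such RNAs are known to be able to start this response, which is the reason for looking at these genes here.

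Values are log2 RMA signals, and a difference is the value with doxycycline minus the value without it. The number of arrays limits the precision, and with 1 array a group there is no replicate spread to hold a difference against, so no test was made. The sizes of 1.2-fold and 1.5-fold are used to describe differences. A gene counted as past the floor when its higher value reached 6. Differences spread more widely among dim genes, and the robust SD of differences over all genes was 0.24 at the level of IFIT1 and 0.10 at that of IFITM1. Whether a gene under the floor was expressed was not tested. BMI1, read through a probe set it shares with COMMD3-BMI1, had a log2 signal of 10.00 in the doxycycline culture and 10.84 in the other (-0.84). Of 10 K562 and erythroid markers analysed, all 10 were past the floor, and HBE1, an embryonic globin gene, stood at 13.03 with doxycycline and 13.34 without. Those markers were lower with doxycycline in 9 of 10 cases, with a median difference of -0.15. Of all 13471 genes past the floor, 6579 were lower. The exception among the markers, KIT, was higher by 0.53, the largest difference of that list. Markers of other blood lineages and fibroblasts summed to 1592 linear units with doxycycline and 1524 without over 10 genes, and 4 of the 7 past the floor were higher. Without LYZ, the lysozyme gene, which differed by 0.28, the sums were 1080 with doxycycline and 1104 without. What these marker differences contributed to the values below was not tested.

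Of the members with a promoter window here, most carry the ISRE letters just before their transcript start. The search used GAAANNGAAA, on both strands, in the 250 bases before each start in the RefSeq promoter table (GRCh38.p14), which held windows for 23 of the 35 members. The letters were found in 16 of these 23 (69.6%), against 1014 of all 27305 genes in that table (3.71%). The letters TTCNNNGAA of the gamma-activated site (GAS), an element known from interferon gamma targets, were found in 8 of 23 members (34.8%), against 2208 of 27305 genes (8.09%). The 2 searches could overlap in the same bases, as they did in the windows of BST2, IFI27 and MX1. The windows shown are the last 200 bases before the start, chosen to set 3 members that were higher with doxycycline (IFIT3, IFIT1 and IFI6) beside 2 bright members that were slightly lower (IFITM3 and BST2). They lie at chr10:89327797-89327996 (IFIT3, plus strand), chr10:89392423-89392622 (IFIT1, plus strand), chr1:27672193-27672392 (IFI6, minus strand), chr11:320861-321060 (IFITM3, minus strand) and chr19:17405631-17405830 (BST2, minus strand). IFIT3 has another annotated start, whose window also held ISRE letters and is not shown. Each window shown reads 5′ to 3′ on the strand of its gene, and capitals mark ISRE letters in either orientation.
IFIT3: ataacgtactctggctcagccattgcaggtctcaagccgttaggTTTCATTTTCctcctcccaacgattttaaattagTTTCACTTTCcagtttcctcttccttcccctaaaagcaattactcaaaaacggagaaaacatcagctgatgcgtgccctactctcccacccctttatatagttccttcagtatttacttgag
IFIT1: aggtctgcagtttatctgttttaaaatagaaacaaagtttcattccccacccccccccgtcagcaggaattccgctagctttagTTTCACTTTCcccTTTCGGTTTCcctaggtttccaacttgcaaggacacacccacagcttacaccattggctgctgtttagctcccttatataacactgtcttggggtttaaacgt
IFI6: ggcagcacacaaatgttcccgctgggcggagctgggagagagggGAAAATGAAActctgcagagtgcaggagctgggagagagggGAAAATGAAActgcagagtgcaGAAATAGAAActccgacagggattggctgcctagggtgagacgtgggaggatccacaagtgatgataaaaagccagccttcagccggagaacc
IFITM3: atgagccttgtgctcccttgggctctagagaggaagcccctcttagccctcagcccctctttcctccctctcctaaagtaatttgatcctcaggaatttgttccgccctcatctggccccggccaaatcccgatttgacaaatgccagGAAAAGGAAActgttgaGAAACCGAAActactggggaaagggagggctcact
BST2: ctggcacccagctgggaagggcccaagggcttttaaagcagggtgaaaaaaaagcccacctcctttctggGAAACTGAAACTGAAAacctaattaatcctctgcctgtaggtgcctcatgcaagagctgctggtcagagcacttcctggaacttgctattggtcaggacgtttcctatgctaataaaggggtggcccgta

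The letters ran in opposite orientation to the gene in IFIT3 and IFIT1 and in the same orientation in IFI6, IFITM3 and BST2. IFI6 held 3 separate matches, beginning 156, 115 and 93 bases before the start. In BST2 the matches overlapped, so that 1 unbroken run of capitals holds 2 of them. A match is a description of the letters and does not show that a factor bound there. Among members with a value, the 16 with the letters had a median difference of 0.03, from -0.20 to 0.48, and 4 of them were at least 1.2-fold higher. The 6 without the letters (IFI16, IFI35, IRF1, IRF9, OAS1 and RIGI) had a median of 0.17, from -0.23 to 0.47, and 2 were at least 1.2-fold higher. No floor was applied to these counts, and with none 7.29% of all genes were at least 1.2-fold higher. Of the 4 with the letters, IFIT1 and IFI44 were under the floor. The ranges overlapped almost wholly, so holding the letters did not separate the members with a window by their difference. APOL6, DHX58, IFIT2 and MX2, each at least 1.2-fold higher, had no window and lay outside this comparison.

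**Figure D1:**
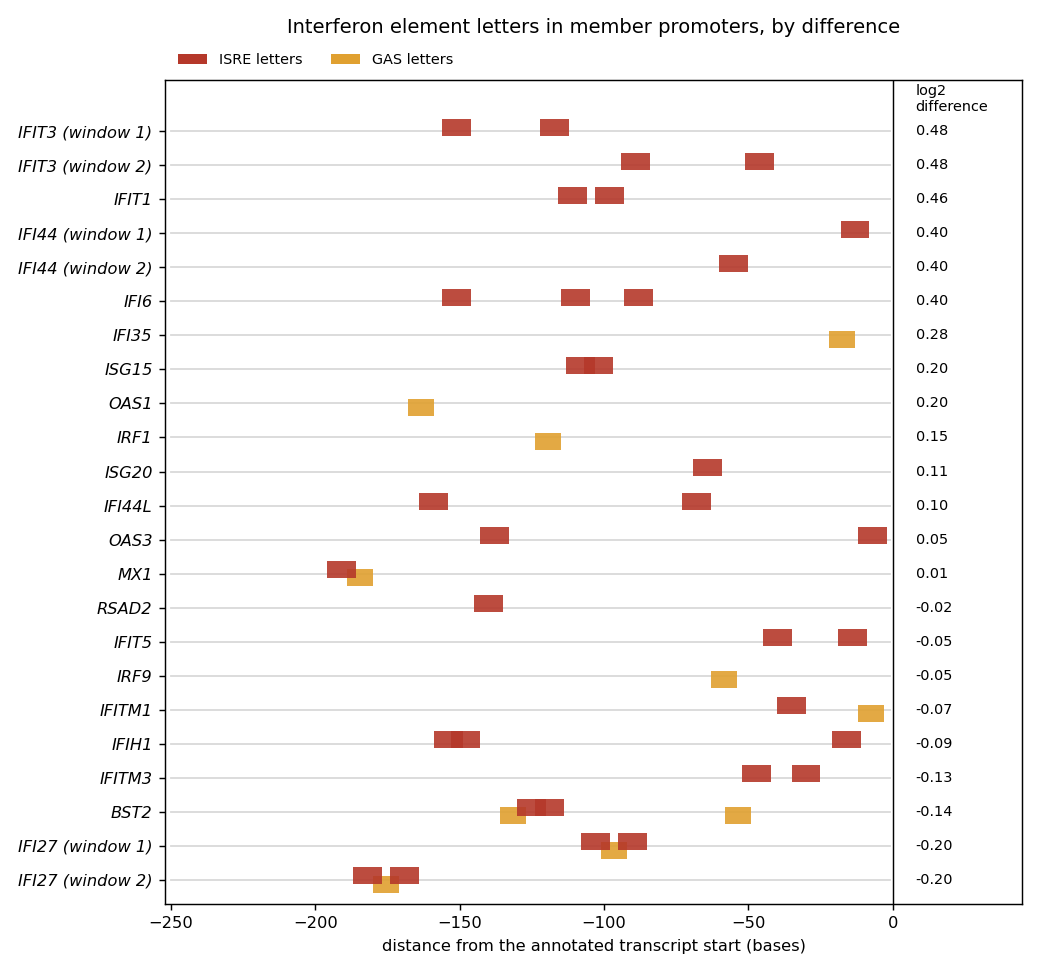
Positions of ISRE letters (red) and GAS letters (orange) in the 250 bases before the transcript start of each member window with a match, ordered from the largest to the lowest log2 difference, doxycycline minus no doxycycline, printed at the right. Windows of 1 gene can overlap, so IFI44 and IFI27 show the same match again; ISRE letters occur in rows from 0.48 (IFIT3) to -0.20 (IFI27).

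Most of the interferon-induced genes lay within 1.2-fold of their value without doxycycline, and the median difference of the set was small. At the floor of 6, a larger share of them than of all genes was at least 1.2-fold higher, on few genes. APOL6, DHX58, IFI6, IFI35 and IFIT3 were higher by that size, as were IFIT1, IFIT2, IFI16, IFI44 and MX2 under the floor. In contrast, IFITM1, IFITM3, BST2, IRF7, IRF9 and RSAD2 were level or slightly lower, and USP18 was just past 1.2-fold lower. Of the 35 members, 21 passed the floor, 13 were under it and 1 was not analysed. The median difference of those 21 was 0.06, against 0.00177 for all 13471 genes past the floor, with 12 higher, 8 lower and 1 exactly equal. The floor sets the sign of this median, which was -0.06 over 10 members with a floor of 7 and -0.07 over 5 members with a floor of 8.

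Only 1 member, APOL6, was at least 1.5-fold higher, where 0.364% of all genes past the floor were, and 0 members were at least 1.5-fold lower, where 0.111% of all genes were. At 1.2-fold, 5 of the 21 were higher (23.8%, against 6.04% of all genes past the floor) and 1 was lower (4.76%, against 4.05%). Of the 5, APOL6 and IFIT3 passed the floor through the doxycycline sample alone and so had to differ. Among the 19 members at the floor in both samples, 3 were at least 1.2-fold higher (15.8%, against 5.45% of 13015 such genes), 1 was lower (5.26%, against 3.48%) and 0 reached 1.5-fold. With no floor, 10 of 34 members were at least 1.2-fold higher (29.4%, against 7.29% of 18417 genes), and 1 was lower (2.94%, against 5.99%). Members with a mean from 6 to under 8 can be read against genes of like level. Of 16 such members, 4 were at least 1.2-fold higher (25%, against 7.65% of 6273 genes), and 1 was lower (6.25%, against 5.39%). Among the 13 members under the floor, 5 were at least 1.2-fold higher (38.5%, against 10.7% of 4946 genes) and 0 were lower, against 11.3%. The shares of higher members thus lay above the background both under the floor and from 6 to 8, on few genes, and members are not independent replicates: IFIT1, IFIT2 and IFIT3 are neighbours on chromosome 10 that share an inducer. Of the 4 members with a mean of at least 8, 0 reached 1.2-fold in either direction. Past the floor, 6.04% of all genes were higher and 4.05% lower by that size, so 0 of 4 says little about bright members. The share of all genes with a mean of at least 8 was not computed.

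**Figure D2:**
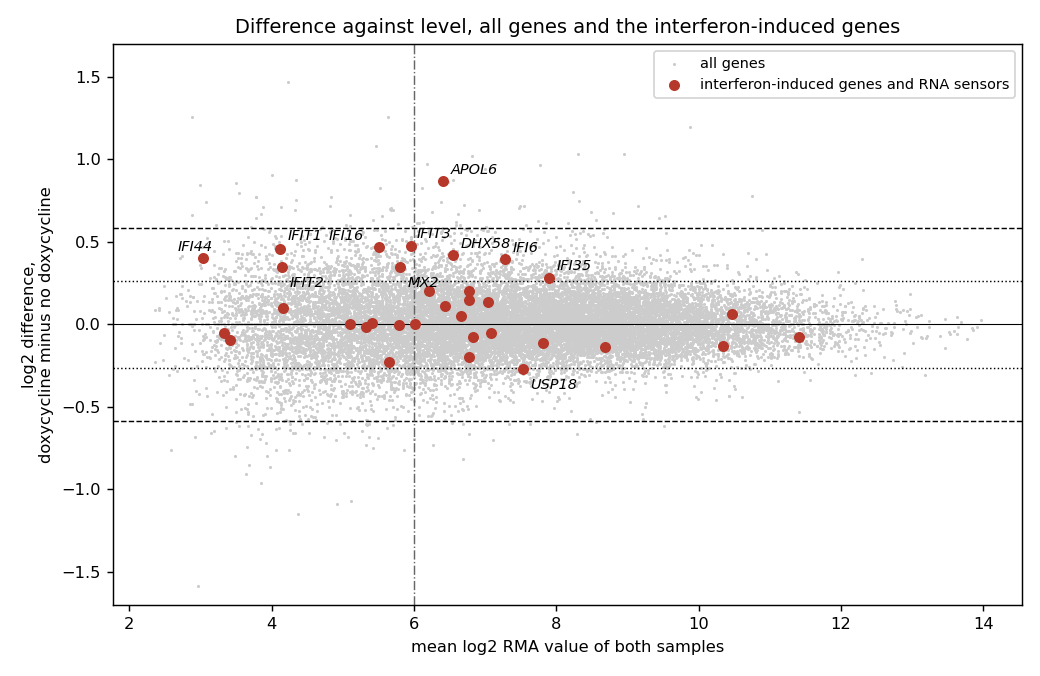
Log2 difference, doxycycline minus no doxycycline, against the mean log2 RMA value of both samples for all 18417 genes (grey) and the 34 members (red). Dotted lines mark 1.2-fold, dashed lines 1.5-fold and the dash-dotted line the floor of 6. APOL6 is the member past 1.5-fold, and the 4 members at a mean of 8 or more lie inside 1.2-fold.

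The RNA sensors went different ways. DHX58, which encodes LGP2, a helicase that modulates the other sensors and lacks their signalling domains, stood at 6.76 with doxycycline and 6.34 without. That is a 1.34-fold higher signal, or 2.39 times the robust SD of differences among genes of similar level, a measure of spread over genes and not over cultures. RIGI, the sensor of short double-stranded RNA with a triphosphate end, read 5.54 with doxycycline and 5.77 without, and so differed by -0.23 and lay under the floor in both cultures. IFIH1, which encodes MDA5, the sensor of long double-stranded RNA, stood at 3.37 with doxycycline and 3.47 without. Of these 3 helicase genes, DHX58 was the sole one past the floor and the sole one that was higher.

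The transcription factors of the response lay close to their values without the drug. IRF7, the factor that amplifies type I interferon production, stood at 7.76 with doxycycline and 7.87 without. IRF9, the DNA-binding partner of STAT2, stood at 7.05 with doxycycline and 7.11 without. IRF1, which interferon gamma strongly induces, stood at 6.85 with doxycycline and 6.70 without. Their differences of -0.11, -0.05 and 0.15 were each smaller than the robust SD of genes at their level.

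The IFIT genes encode proteins that bind viral RNA through tetratricopeptide repeats and hold back its translation. IFIT3 read 6.20 with doxycycline and 5.72 without, and so differed by 0.48, or 2.55 times the robust SD. IFIT1, which recognises RNA caps that lack a methyl mark, stood at 4.35 with doxycycline and 3.90 without. IFIT2, which associates with the other two, stood at 4.33 with doxycycline and 3.98 without. The differences of IFIT1 and IFIT2, 0.46 and 0.35, were 1.94 and 1.48 times the robust SD at this low level. IFIT5, a further gene of the cluster, stood at 3.31 with doxycycline and 3.36 without. Of the 4 IFIT genes, 3 were thus higher by similar amounts, and only IFIT3 reached the floor, in the doxycycline culture alone.

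The OAS enzymes make a short oligoadenylate messenger that activates RNase L once they meet double-stranded RNA. OAS1 read 6.31 with doxycycline and 6.11 without, and so differed by 0.20. OAS3, the enzyme with the longest chain of repeated domains, read 6.69 with doxycycline and 6.64 without. OASL, a relative without catalytic activity, read 6.02 in both cultures, and OAS2 read 5.10 in both. Their differences were exactly 0. Other genes tied exactly too, since 9109 of 18417 were higher and 8992 lower, so these ties are not read as measured constancy. No OAS gene reached 1.2-fold. The MX genes encode dynamin-like GTPases that trap viral particles. MX1, among the most used indicators of type I interferon signalling, stood at 5.41 with doxycycline and 5.40 without. MX2, which restricts HIV, read 5.98 with doxycycline and 5.63 without, and so differed by 0.35 just under the floor of 6.

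The brightest members were the membrane proteins, and they were flat or lower. IFITM1 stood at 11.37 with doxycycline and 11.44 without, IFITM2 at 10.51 with doxycycline and 10.44 without, and IFITM3 at 10.28 with doxycycline and 10.41 without. These proteins block the fusion of viruses with cell membranes, and the closeness of their coding sequences makes their separate signals uncertain. BST2, or tetherin, which holds budding virus at the cell surface, stood at 8.61 with doxycycline and 8.75 without. Across these 4 genes the differences ran from -0.14 to 0.06, with 3 lower and 1 higher.

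ISG15 and USP18 form a pair, since ISG15 is a ubiquitin-like modifier and USP18 the protease that removes it and dampens receptor signalling. ISG15 read 6.88 with doxycycline and 6.67 without, and so differed by 0.20. USP18 read 7.40 with doxycycline and 7.67 without, and so differed by -0.27, which made it the sole member at least 1.2-fold lower. A further probe set, annotated to USP18 and the pseudogene USP41P, went the other way, at 6.33 with doxycycline and 6.14 without. USP18 was just past the 1.2-fold size and fell short of it when each sample was centred on its median, so its direction was not settled.

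Among the other effectors, IFI6, IFI35, IFI16 and IFI44 were at least 1.2-fold higher. IFI6, a mitochondrial and endoplasmic reticulum protein that opposes apoptosis, stood at 7.48 with doxycycline and 7.09 without, 2.62 times the robust SD. IFI35, a partner of NMI, was the brightest member past 1.2-fold, at 8.05 with doxycycline and 7.76 without. IFI16, a nuclear sensor of DNA, stood at 5.74 with doxycycline and 5.28 without. Both IFI16 and IFI44 were under the floor, the second at 3.24 with doxycycline and 2.84 without. Its neighbour IFI44L stood at 4.20 with doxycycline and 4.11 without. IFI27 and RSAD2, both common indicators of an interferon response, were not higher. IFI27 stood at 6.68 with doxycycline and 6.88 without, and RSAD2, which encodes the antiviral enzyme viperin, at 5.32 with doxycycline and 5.33 without. ISG20, which encodes an exonuclease, read 6.50 with doxycycline and 6.38 without.

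The APOL genes form a cluster on chromosome 22 and encode apolipoprotein L proteins, most of them intracellular. APOL6, whose product can promote cell death when overexpressed, had the largest difference of all members. Its signal stood at 6.85 with doxycycline and 5.98 without, 1.83-fold higher and 4.55 times the robust SD. By difference APOL6 ranked 11 among the 13471 genes past the floor. It passed that floor through the doxycycline sample alone, so the rank adds no support to the difference. APOL1, the secreted trypanolytic factor, stood at 7.11 with doxycycline and 6.98 without. APOL2 stood at 6.79 with doxycycline and 6.87 without, and APOL3 at 5.79 with doxycycline and 5.80 without. APOL4, a further gene of the cluster outside the set, read 7.24 with doxycycline and 6.90 without, and so differed by 0.35. APOL6 and APOL4 thus had the largest differences of the cluster and APOL1 a smaller one (0.13), while APOL2, APOL3 and APOL5 (4.71 with doxycycline and 4.80 without) were not higher.

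**Figure D3:**
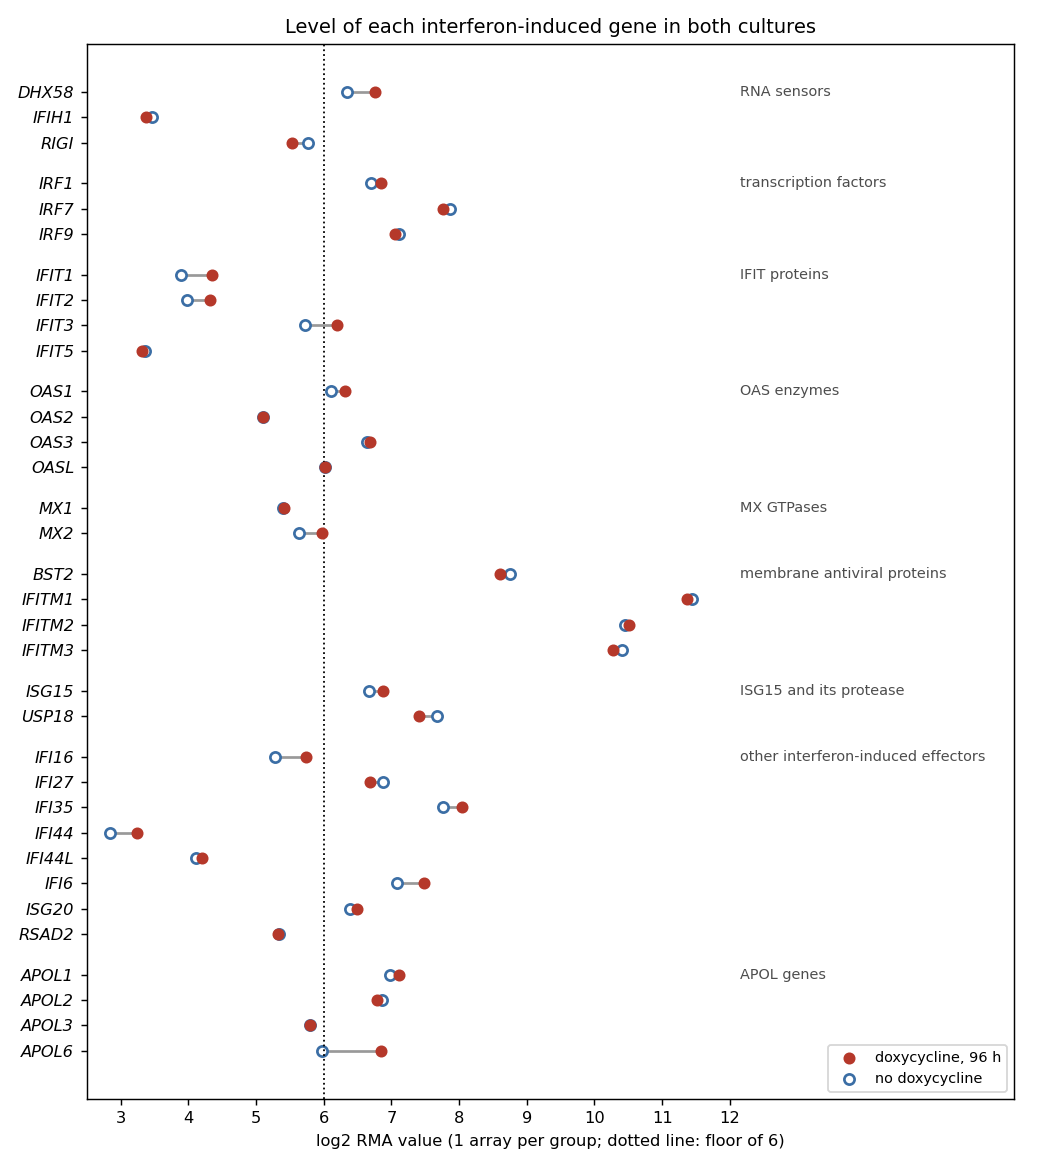
Log2 RMA value of each of the 34 members with doxycycline for 96 h (filled red) and without (open blue), 1 array each, grouped by role; the dotted line is the floor of 6. The longest gap is that of APOL6 (6.85 with doxycycline, 5.98 without), and the points of IFITM1, IFITM2 and IFITM3 nearly coincide.

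The rest of the pathway was described through 8 further lists. Most interferon genes were not higher. Of 12 ligand genes analysed, 4 were higher, where 49.5% of all genes with no floor were. Of the 12, 9 lay under the floor, and IFNB1 stood at 3.96 with doxycycline and 3.88 without. Whether those 9 could have shown a rise in these cells was not tested. The 3 past the floor were the lambda interferon genes IFNL1 (-0.13), IFNL2 (0.10) and IFNL3 (-0.09), which are close in sequence, so their values are uncertain. Receptors and kinases had a median of 0.07 over 9 genes, with 6 higher, where 50.3% of all genes past the floor were. Of these 9, 1 was at least 1.2-fold higher (11.1%, against 6.04% of all genes past the floor). IFNGR1, a chain of the interferon gamma receptor, differed by 0.31, JAK2 by 0.18 and IL10RB, a chain shared by the lambda interferon receptor, by 0.18.

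Sensor adaptors and kinases had a median of -0.04 over the 12 genes past the floor, with 5 higher and 7 lower. TICAM1, the adaptor of TLR3, stood at 7.58 with doxycycline and 7.89 without, 1.23-fold lower, and TRAF3 differed by -0.18. STING1, the adaptor for DNA sensing, stood at 9.32 with doxycycline and 9.07 without. Among toll-like receptor genes, which lay under the floor and were named after their values were seen, TLR3, a sensor of double-stranded RNA, read 4.33 with doxycycline and 3.80 without. TLR7, a sensor of single-stranded RNA, read 4.36 with doxycycline and 3.88 without. The other genes of this list under the floor were TLR8 (0.17), RNF135 (-0.28) and CGAS (-0.15). Under the floor, 10.7% of all genes were at least 1.2-fold higher and 11.3% lower. EIF2AK2, which encodes the double-stranded RNA kinase PKR, differed by 0.18, at 9.51 with doxycycline and 9.33 without. In its list of 5 double-stranded RNA enzymes, PNPT1 differed by -0.17 and ZC3HAV1 by 0.06, and 0 reached 1.2-fold. Hairpin processing and Argonaute genes split, with 4 higher and 5 lower of 9 and a median of -0.03. TARBP2, the Dicer partner, differed by 0.19, DICER1 by 0.17 and DROSHA by -0.19.

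A list of further interferon-induced genes held 36 with a value. Of the 25 past the floor, 18 were higher and 7 lower, with a median of 0.07, where 50.3% of all genes past the floor were higher. At least 1.2-fold higher were 6 of the 25 (24%, against the 6.04% of all genes), and 0 were lower by that size. The 11 under the floor went both ways. Among them HERC6 (0.52) and GBP3 (0.34) were at least 1.2-fold higher, and LGALS9 (-0.49) and RTP4 (-0.31) were lower by that size. Over all 36 genes, 21 were higher and the median was 0.04. GBP2, a guanylate-binding GTPase, read 7.31 with doxycycline and 6.72 without, and so differed by 0.59, and its other probe set differed by 0.19. UBA7, the enzyme that activates ISG15 for conjugation, stood at 7.38 with doxycycline and 6.86 without. SP110, a nuclear body protein gene, differed by 0.38. The NF-kB target list had 10 of 11 genes higher and a median of 0.12, which was 0.0489 with a floor of 7 and 0.0303 with a floor of 8. At least 1.2-fold higher were 2 of the 11, TNFAIP3 (0.43), a ubiquitin-editing inhibitor of NF-kB, and the cytokine gene IL6 (0.35). TNF differed by 0.20, passed the floor in the doxycycline culture alone, and had the same value at its 3 probe sets. Of the APOL genes outside the members, APOLD1, a relative expressed in endothelium, differed by 0.05.

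**Figure D4:**
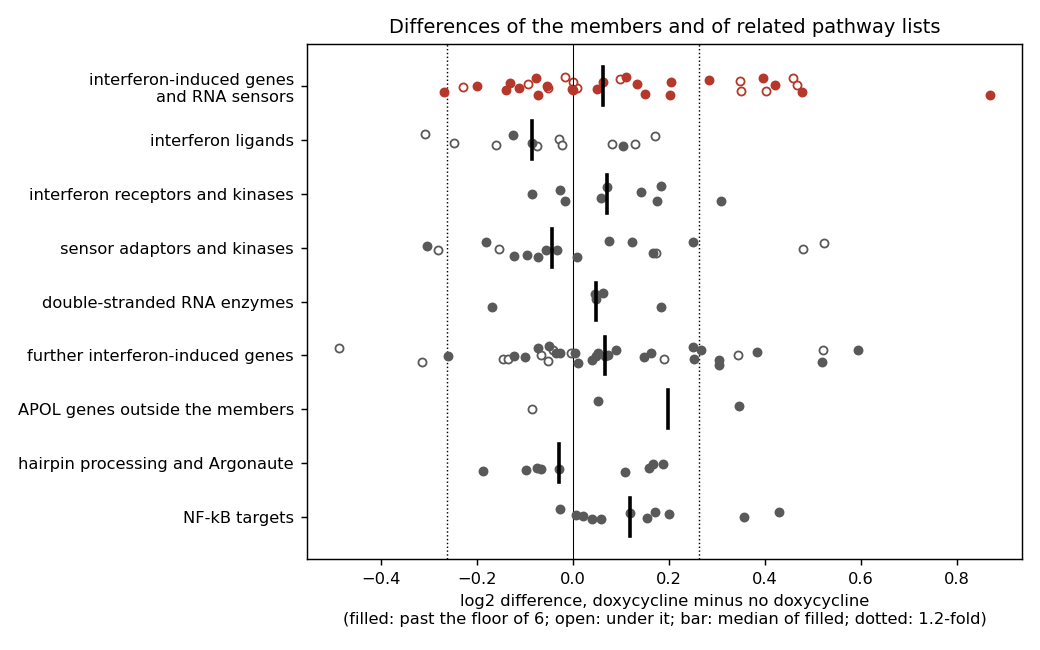
Log2 difference, doxycycline minus no doxycycline, of each gene in the member set (red) and in 8 related lists (grey); filled points are past the floor of 6, open points under it, bars are medians of the filled points and dotted lines mark 1.2-fold. The medians run from -0.09 for interferon ligands to 0.20 for APOL genes outside the members, and the members' median is 0.06.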

How the data were processed

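RNA of both cultures was hybridised to Affymetrix arrays, 1 per culture. Per the submitters' processing notes, the authors used Affymetrix Expression Console 1.1.1 with RMA, which gave the deposited log2 values. This method compresses differences at low signal and hides any shift common to all genes. The log base was taken from RMA and the range, 1.61 to 14.6. The platform annotation is that of a Gene ST array, though the design text names another. Symbols were updated through Entrez IDs to RefSeq (GRCh38.p14) for 19429 of 19460 probe sets with 1 symbol. Probe sets with several symbols were left out, apart from those of BMI1 and USP18, and a gene took its probe set with the highest mean. Each of the 34 members analysed had 1 such probe set.

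The robust SD is the scaled median absolute deviation of differences within each of 25 bins of level (factor 1.4826). The members and lists were chosen with earlier results of these data known. Named were all members and, per list, up to 3 genes past the floor with the largest absolute difference. IFNB1, APOL5, TLR3, TLR7, TLR8, RNF135, CGAS, HERC6, GBP3, LGALS9 and RTP4 were added after their values were seen. Counting was tested on simulated data, in which bright genes were given changes larger than the 1.5-fold size used to count them. The 1.2-fold counts and dim genes were not covered. Alternatives covered probe set rule, scaling and floor. Python 3.11.15, pandas 2.3.3 and statsmodels 0.14.6 were used.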

Additional observations from a re-analysis of the deposited data

How the results depend on the processing

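Counts were compared within 1.5 times and medians within 0.05. Under the mean or median over probe sets, shared probe sets kept, quantile normalization, a loess trend subtracted (span 0.3) and a floor of 6 on the mean, all member counts and medians stayed within these bounds. No scaling moved the median of all genes by more than 0.00991. All 204 recomputed member differences moved by less than the robust SD. The mean and median rules could not move a member, since each had 1 probe set of its own. Keeping shared probe sets could not either, since that of USP18 was dimmer than its own. Centring moved all genes alike, so only quantile normalization and the loess trend could shift members apart. Centring left 0 members at least 1.2-fold lower, without USP18. With no floor, 10 members were at least 1.2-fold higher, and the median of APOL genes outside the members was 0.0521. With a floor of 7, 0 members were at least 1.5-fold and 2 at least 1.2-fold higher, the members' median was -0.0638 and that of NF-kB targets 0.0489. With a floor of 8, the counts were 0 and 1 higher and 0 lower at 1.2-fold, and the medians were -0.0739 for members, 0.14 for receptors and kinases and 0.0303 for NF-kB targets. These floors keep fewer genes. Without the APOL genes, an alternative chosen after seeing the data, 0 members were at least 1.5-fold higher. No paired analysis was possible because each group held 1 sample.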
